A study of Mus musculus with 44 samples.

Results

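The SLC25 family comprises the mitochondrial carriers, and its response to 2-butoxyethanol (2BE) was followed in mouse liver, spleen and bone marrow. The members were all genes whose single annotated symbol begins with Slc25a, with 1 family member left out by the rule, which gave 43 of the 18193 genes measured. Where a gene had several probe sets, the brightest on average across the 44 arrays stood for it, and 20 members had 1 probe set while 23 had several. Membership followed from the symbol, and the probe set from its mean intensity, 2BE arrays included. The family was chosen with earlier results of these data known.

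The animals were B6C3F1 mice, a hybrid laboratory strain, and each sample's title named 2BE or vehicle. 2BE is a glycol ether solvent known for lysing red cells in rodents after it is oxidised to its acid. Vehicle and 2BE groups held 3 and 4 arrays for liver at 4 h, 4 and 4 for spleen at 4 h, 4 and 5 for liver at 7 d, and 5 and 5 for both bone marrow and spleen at 7 d. Liver came from the left lateral lobe, bone marrow from the right humerus and spleen from part of a cross-section, and marrow RNA was prepared with another kit than that of the other tissues. A second label called the 2BE arm reduced oxygen and the vehicle arm control, and the groups here follow the titles. Dose, route, age and sex are not given in the sources used here. Since no label says that the replicates were separate animals, the p-values measure the spread between these samples, which may be technical, and the number of arrays limits their precision.

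The deposited values were probe set intensities on a linear scale, and every value below is log2(intensity + 1), called the log2 value. A fold change on this scale understates the change of low genes. Array medians of the intensity ran from 41.2 to 52.3 in liver, 87.0 to 112 in spleen and 86.2 to 89.6 in marrow, so levels are set side by side only within a tissue and time. Hepatocyte markers (7 measured of 8 listed) all lay above the median probe set in liver, as did the B cell markers (7 of 8) in every spleen group and the neutrophil markers (7 of 8) in marrow. Summed intensity of 12 erythroid markers was 9663 on replicate 1 of the vehicle spleens at 7 d and 22908 to 25334 on the other 4. Adipocyte markers (5 measured) summed to 7543 on replicate 3 of the 2BE spleens at 4 h and 968 to 1278 on the other 3, and to 381 to 7776 across the vehicle spleens at 7 d.

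Most carriers of this family sit in the inner membrane of the mitochondrion, where each exchanges or imports a small solute such as a nucleotide, a carboxylic acid, an amino acid, a cofactor or an acylcarnitine between cytosol and matrix. They are made in the cytosol and imported by dedicated translocases. In developing red cells they supply glycine, iron and glutathione for haem and iron-sulfur cluster formation, and in liver they serve the urea cycle, fat oxidation and the malate-aspartate shuttle.

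A gene was called where the Benjamini-Hochberg adjusted p of limma over all 18193 genes was under 0.05. In liver at 4 h 6 of 43 members were called by the fit without pairing by replicate number (14.0%, against 4.51% of all genes). Of these 5 were higher with 2BE and 1 lower, while 3.24% of all genes were higher and 1.27% lower. In liver at 7 d 2 members were called, both higher (4.65%, against 0.748% of all genes, with 0.506% higher and 0.242% lower). Spleen at 4 h had 3 members called (6.98%, against 5.16% of all genes), 2 higher and 1 lower, where 3.31% of all genes were higher and 1.85% lower. Bone marrow at 7 d had 5 members called (11.6%, against 20.1% of all genes), 2 higher and 3 lower, where 9.40% of all genes were higher and 10.7% lower. Spleen at 7 d had 27 members called (62.8%, against 64.4% of all genes), 14 higher and 13 lower, where 32.4% of all genes were higher and 32.0% lower. The members' share thus lay near that of all genes in spleen at both times, below it in marrow and above it in liver, where the counts rest on 6 and 2 genes. Their median log2 fold change lay within 0.1 of the median of all genes in each tissue and time, from -0.058 against -0.032 in spleen at 4 h to 0.040 against -0.0013 in liver at 7 d, with -0.045 against 0.051 in spleen at 7 d. There were 14 members called in no comparison, 16 in 1, 12 in 2, and Slc25a51 in 3. The spleen count at 4 h was 1 without vehicle replicate 2 or 4 or without 2BE replicate 1, 3 or 4, and 5 without 2BE replicate 2. The liver count at 4 h was 3 without vehicle replicate 1, and also 3 with the replicate number as a block.

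**Figure D1:**
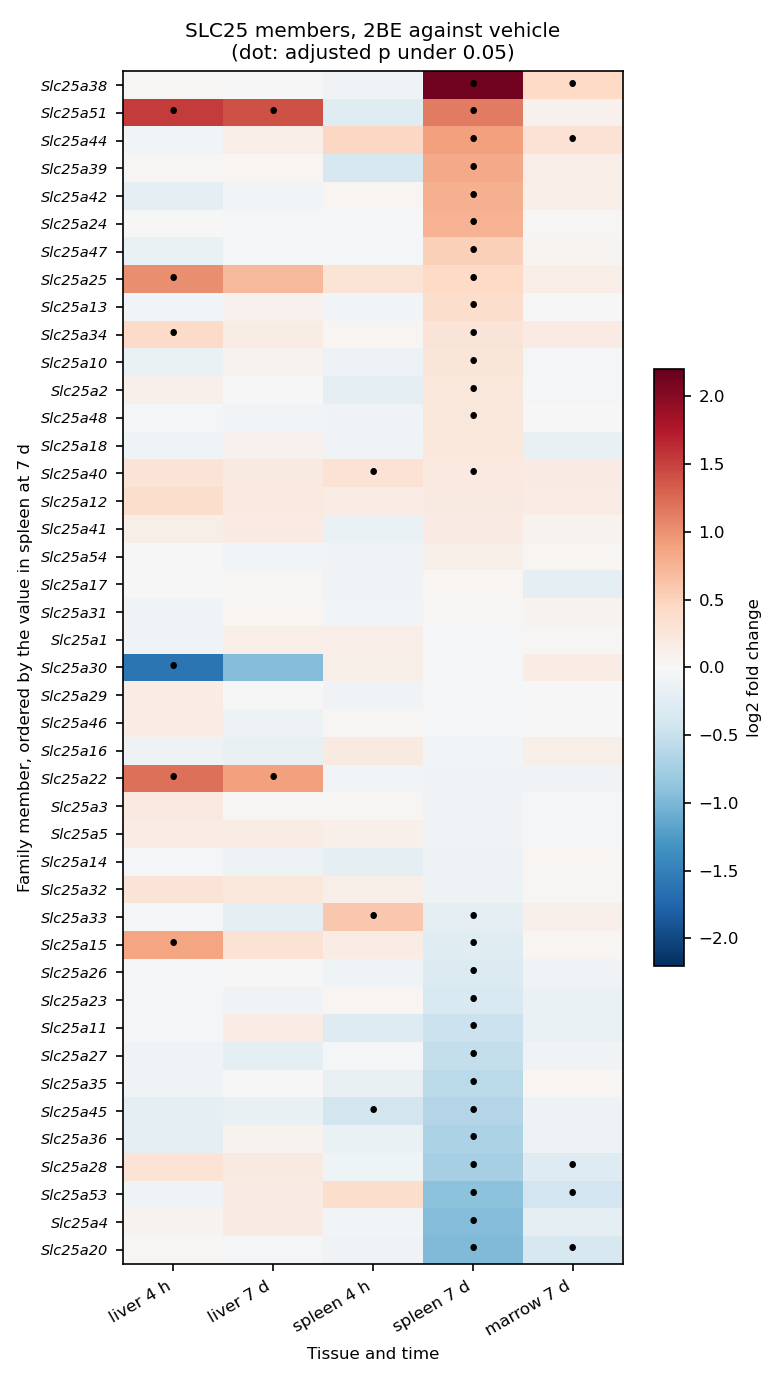
Log2 fold change of 2BE over vehicle (colour, red higher with 2BE and blue lower) for the 43 members (rows, ordered by their value in spleen at 7 d) in each tissue and time (columns), with a dot where the adjusted p was under 0.05. Spleen at 7 d holds 27 dots on both sides of 0, from 2.12 for Slc25a38 to -0.97 for Slc25a20, while the liver columns hold 8 dots that include Slc25a51 and Slc25a22 at both times.

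Slc25a38 imports glycine for the first step of haem synthesis, and its loss causes an inherited sideroblastic anaemia. It was higher with 2BE in spleen and in marrow at 7 d. Its log2 values in spleen at 7 d were 8.84, 9.03, 9.12, 9.18 and 9.01 with vehicle and 11.41, 11.17, 11.15, 11.22 and 10.84 with 2BE. The lowest 2BE spleen stood more than 1 log2 unit above the highest vehicle spleen. The log2 fold change was 2.12 ± 0.17 (SE), a 4.36-fold rise (limma adjusted p = 3.0e-08), above that of 98.7% of all genes, and it was 2.07 without vehicle replicate 1, the array with the low erythroid sum.

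In marrow at 7 d Slc25a38 read 10.16, 10.50, 10.25, 10.43 and 10.44 with vehicle and 11.03, 10.69, 10.82, 10.83 and 10.59 with 2BE. All 5 2BE marrows lay above all 5 vehicle marrows, with replicate 1 the highest, and the log2 fold change was 0.44 ± 0.085 (1.36-fold, adjusted p = 0.00247). The response in marrow was smaller than that in spleen, with a difference of -1.68 ± 0.12 for marrow minus spleen (adjusted p = 4.1e-12).

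At 4 h the vehicle spleens read 9.76, 9.26, 10.18 and 9.28 for Slc25a38 and the 2BE spleens 9.32, 9.18, 9.74 and 9.91. The arms overlapped, and the log2 fold change was -0.084 ± 0.18 (adjusted p = 0.856), or 0.10 without vehicle replicate 3. The highest value, on vehicle replicate 3, was on the array with the highest erythroid sum (59249), and the lowest, on 2BE replicate 2, was on the array with the lowest (30144). The response at 7 d exceeded that at 4 h by 2.21 ± 0.25 log2 units (adjusted p = 4.1e-06). In liver its vehicle means were 8.30 ± 0.0045 (SD, n = 3) at 4 h and 8.66 ± 0.064 (n = 4) at 7 d, and the log2 fold changes were 0.033 ± 0.068 and -0.0097 ± 0.060. The response at 7 d was larger in spleen than in liver by 2.13 ± 0.12 log2 units (adjusted p = 3.8e-14).

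Slc25a39, which imports glutathione into mitochondria, is abundant in red cell precursors and was higher with 2BE in spleen at 7 d. Its log2 values there were 12.88, 13.39, 13.33, 13.31 and 13.39 with vehicle and 14.01, 14.16, 14.21, 14.22 and 13.87 with 2BE. The arms did not overlap, and vehicle replicate 1 lay below the other vehicle spleens. The log2 fold change was 0.84 ± 0.10 (1.78-fold, adjusted p = 1.7e-06), 0.74 without vehicle replicate 1, and 0.73 to 1.18 on its 4 other probe sets. At 4 h all 4 2BE spleens (13.08, 12.82, 13.24 and 13.02) lay below all 4 vehicle spleens (13.53, 13.25, 13.44 and 13.33), with a log2 fold change of -0.35 ± 0.12 that missed the threshold (adjusted p = 0.0992). The response at 7 d differed from that at 4 h by 1.18 ± 0.16 log2 units (adjusted p = 1.5e-05).

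In marrow the arms of Slc25a39 overlapped (13.45 to 13.79 with vehicle, 13.62 to 13.98 with 2BE) and the log2 fold change was 0.14 ± 0.079 (adjusted p = 0.247). Averaged over all its probe sets it was 0.25 there (adjusted p = 0.0272). The spleen response at 7 d was larger than that of marrow (marrow minus spleen -0.70 ± 0.12, adjusted p = 2.7e-05) and larger than that of liver by 0.80 ± 0.12 (adjusted p = 3.8e-06). In liver the log2 fold changes were 0.033 ± 0.054 at 4 h and 0.040 ± 0.047 at 7 d. Slc25a39 was bright in liver too, with vehicle values of 13.56 to 13.69 at 4 h and 13.86 to 13.99 at 7 d.

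**Figure D2:**
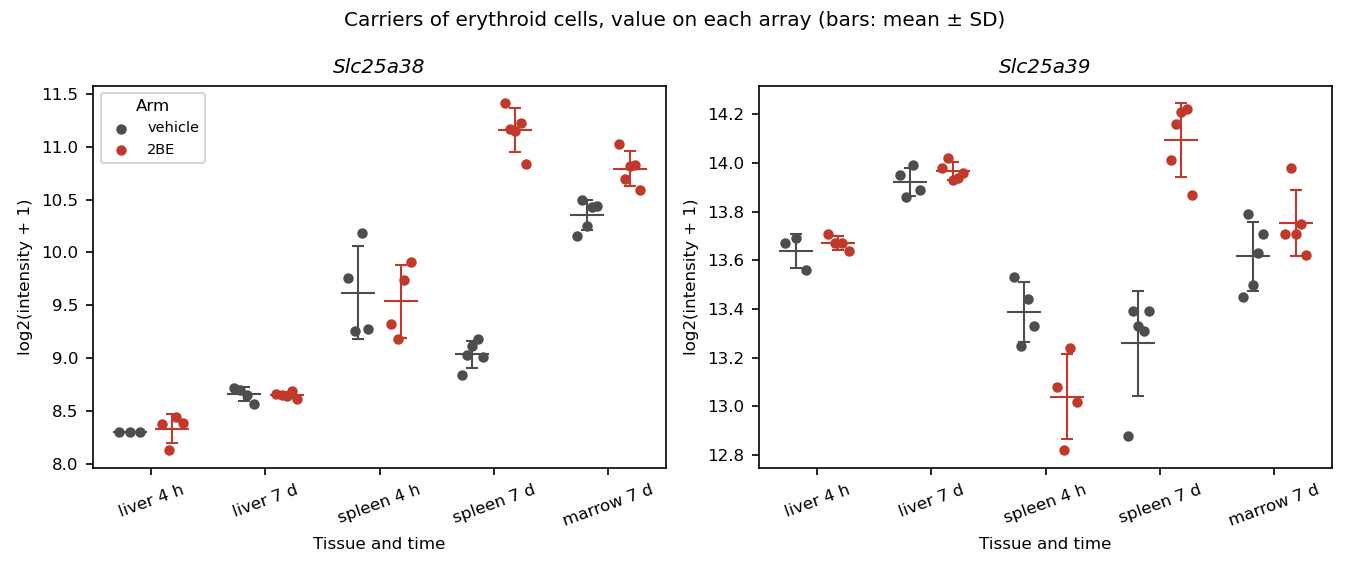
Log2 value of Slc25a38 (left) and Slc25a39 (right) on each array (points, vehicle grey and 2BE red) by tissue and time, with bars for the mean ± SD, and with levels comparable only within a tissue and time. The arms separate for both genes in spleen at 7 d and for Slc25a38 also in marrow, and overlap in liver at both times. For Slc25a39 in spleen at 4 h 2BE lies below vehicle by a narrow gap (13.24 against 13.25), and the gene was not called there.

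The windows of 250 bases before the annotated starts of these genes are shown because both rose in the same spleens and motifs linked with red cell genes were searched for in them. They are RefSeq sequence of GRCm38.p6, printed 5′ to 3′ on the gene's strand, with motif matches in capitals. Slc25a38 lies on chromosome 9 (chr9:120110132-120110381, plus strand, 41.6% GC), and Slc25a39 on chromosome 11 (chr11:102407518-102407767, minus strand, 77.2% GC).
Slc25a38: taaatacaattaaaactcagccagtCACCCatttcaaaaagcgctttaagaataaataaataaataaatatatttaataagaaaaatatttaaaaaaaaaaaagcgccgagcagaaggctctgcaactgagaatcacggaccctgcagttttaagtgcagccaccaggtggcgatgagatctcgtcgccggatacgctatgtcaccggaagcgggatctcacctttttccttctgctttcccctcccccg
Slc25a39: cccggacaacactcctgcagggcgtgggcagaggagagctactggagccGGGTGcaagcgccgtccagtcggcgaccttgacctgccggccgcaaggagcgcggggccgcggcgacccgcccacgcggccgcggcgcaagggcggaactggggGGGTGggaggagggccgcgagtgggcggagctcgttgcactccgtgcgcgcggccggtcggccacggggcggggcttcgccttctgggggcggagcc
CACCC, searched on both strands like every motif here, stood 225 to 221 bases before the start of Slc25a38, and on the opposite strand, read as GGGTG, 201 to 197 and 97 to 93 bases before that of Slc25a39. CACCC was in 52.0% of all 32851 promoter windows of this length. AGATAA and TGATAA, letters bound by GATA factors, were in 9.99% and 7.94% of all windows and in neither of these. The table held 43 windows for 34 of the members.

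Other members that handle iron, glutathione or the reactions around haem moved in both directions. Slc25a28, the mitochondrial iron importer of most non-erythroid cells, was lower with 2BE in spleen at 7 d. Its log2 values were 9.74, 9.60, 9.65, 9.64 and 9.73 with vehicle and 8.91, 8.84, 8.91, 8.90 and 9.14 with 2BE. No 2BE spleen reached a vehicle spleen, 2BE replicate 5 came nearest, and the gene fell by 0.73 ± 0.072 log2 units (adjusted p = 1.4e-07). It also fell in marrow, by 0.29 ± 0.072 (9.05, 8.78, 8.87, 9.03 and 8.95 against 8.71, 8.69, 8.42, 8.76 and 8.66, adjusted p = 0.0121), again with no overlap. In liver it was 0.30 ± 0.098 at 4 h and 0.20 ± 0.086 at 7 d, neither called, and at 4 h without 2BE replicate 1 it was 0.36 (adjusted p = 0.0492). Slc25a40, a close relative of Slc25a39, rose by 0.32 ± 0.088 in spleen at 4 h and by 0.22 ± 0.078 in spleen at 7 d (adjusted p = 0.0366 and 0.0224). The call at 4 h was lost without vehicle replicate 1, 2 or 4 or 2BE replicate 1, 3 or 4 (adjusted p = 0.0553 to 0.127), after further quantile normalization (adjusted p = 0.0538) and with the arrays of the compared groups alone (adjusted p = 0.104). The 7 d call was lost without vehicle replicate 2 or 3 or 2BE replicate 1 (adjusted p = 0.0526 to 0.0704).

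The enzymes and transporters of haem synthesis (14 measured of 17 listed) gave the surroundings of these carriers. At 7 d in spleen 13 were higher and Alas1, the housekeeping form of the first enzyme, was lower, with a median log2 fold change of 2.36 against 0.051 over all genes. In that set 32.4% of all genes were higher and 32.0% lower. Abcb10, a mitochondrial transporter of erythroid cells, rose by 2.78 ± 0.22 (adjusted p = 3.0e-08), and Fech, which inserts iron into haem, by 1.70 ± 0.16 (adjusted p = 1.2e-07). In marrow 11 of 14 were higher with a median of 0.38, where 9.40% of all genes were higher. In liver limma called 0 of 14 at 4 h and at 7 d (2 and 3 at an unadjusted p under 0.05), at medians of -0.059 and 0.052. Of all genes 4.51% and 0.748% were called in liver at these times.

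Cell markers moved with these results. All 12 erythroid markers measured (of 18 listed) were higher in spleen at 7 d, with summed intensities of 9663 to 25334 against 83126 to 101538, and all 7 markers of proliferating cells were higher (median 2.43). All 7 B cell markers were lower (33585 to 39866 against 6572 to 17650, the highest on 2BE replicate 5), as were 5 of 6 T cell and 5 of 6 megakaryocyte markers. In spleen at 7 d 32.4% of all genes were higher and 32.0% lower. In marrow 10 of 12 erythroid markers were higher (51062 to 64845 against 72980 to 79463), 6 of 7 proliferation markers were higher and all 7 B cell markers were lower (6740 to 8419 against 1998 to 3329). Marrow had 9.40% of all genes higher and 10.7% lower. In liver the erythroid sums were 1533 to 2395 against 2016 to 2173 at 4 h, with 0 of 12 called by limma (1 at an unadjusted p under 0.05), and 2411 to 2835 against 2723 to 3397 at 7 d, with 1 called. Of all genes 4.51% and 0.748% were called in liver at 4 h and 7 d. The part of these cells in the carrier results was not tested. In bulk tissue such as this, fewer cells of a type and less RNA per cell cannot be told apart.

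Slc25a51 imports NAD+ into mitochondria, and it was higher with 2BE in liver at both times and in spleen at 7 d. In liver at 4 h its log2 values were 10.37, 10.36 and 10.14 with vehicle and 11.58, 11.94, 11.72 and 12.05 with 2BE. In liver at 7 d they were 9.80, 9.44, 9.75 and 9.91 with vehicle and 10.36, 11.72, 10.83, 11.24 and 11.49 with 2BE. No overlap was seen at either time, and the 2BE livers spread more widely at 7 d than at 4 h. The log2 fold changes were 1.53 ± 0.23 (2.89-fold, adjusted p = 0.00158) and 1.40 ± 0.21 (2.64-fold, adjusted p = 0.00618), and its other probe sets gave 1.19 to 1.70 and 0.95 to 1.40. In each liver set 99.8% of all genes had a lower log2 fold change.

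In spleen at 7 d Slc25a51 read 10.97, 11.31, 11.35, 11.38 and 11.40 with vehicle and 12.41, 12.48, 12.56, 12.47 and 12.22 with 2BE. Vehicle replicate 1, the array with the low erythroid sum, was the lowest, and no 2BE spleen overlapped the vehicle spleens. The log2 fold change was 1.15 ± 0.10 (2.21-fold, adjusted p = 5.5e-08), 1.07 without that array and 1.86 to 2.07 on the other probe sets. At 4 h in spleen it was -0.27 ± 0.11 (adjusted p = 0.193), below the liver response (spleen minus liver -1.80 ± 0.18, adjusted p = 8.4e-05) and below the spleen response at 7 d (7 d minus 4 h 1.42 ± 0.15, adjusted p = 2.3e-06). In marrow it was 0.087 ± 0.072 (adjusted p = 0.443), below the spleen response (marrow minus spleen -1.06 ± 0.22, adjusted p = 2.1e-04). For spleen minus liver at 7 d the value was -0.26 ± 0.22, which missed the threshold (adjusted p = 0.327).

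The remaining carriers of nucleotides and cofactors gave smaller values. Slc25a42, which imports coenzyme A, rose in spleen at 7 d by 0.78 ± 0.088 (adjusted p = 5.5e-07), from 8.02, 8.01, 8.11, 8.20 and 7.95 with vehicle to 8.87, 8.89, 8.84, 8.91 and 8.69 with 2BE. The arms were apart, and its other probe set gave 0.32. Slc25a36, a pyrimidine nucleotide carrier, fell there by 0.70 ± 0.084 (adjusted p = 1.1e-06), from 10.83, 10.81, 10.79, 10.70 and 10.84 to 9.95, 9.92, 10.21, 10.05 and 10.35. Slc25a33, the other pyrimidine nucleotide carrier, rose in spleen at 4 h by 0.60 ± 0.099 (1.52-fold, adjusted p = 8.1e-04), from 7.18, 7.24, 7.40 and 7.32 to 8.11, 7.97, 7.82 and 7.65. All 4 2BE spleens were above all 4 vehicle spleens. At 7 d it fell by 0.22 ± 0.089 (adjusted p = 0.0393), and the 2 responses differed by -0.82 ± 0.13 (adjusted p = 1.0e-04). Of the 8 members measured in this role (of 9 listed), 2 were higher and 3 lower in spleen at 7 d, where 64.4% of all genes were called. The adipocyte marker sums of the spleens at 4 h were 307 to 650 with vehicle and 968 to 7543 with 2BE, and without the array at 7543 the response of Slc25a33 was 0.63.

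Among amino acid carriers (9 members), Slc25a22 and Slc25a15 were higher in liver. Slc25a22 carries glutamate with protons and read 10.78, 10.70 and 10.20 with vehicle at 4 h and 11.56, 11.84, 11.78 and 11.88 with 2BE. At 7 d it read 10.28, 10.26, 10.40 and 10.07 with vehicle and 11.03, 11.52, 10.81, 11.32 and 11.10 with 2BE. Both times separated the arms, with log2 fold changes of 1.21 ± 0.16 (2.31-fold, adjusted p = 6.0e-04) and 0.90 ± 0.14 (1.87-fold, adjusted p = 0.00670). The spleen values were -0.059 ± 0.058 at 4 h and -0.076 ± 0.052 at 7 d, neither called, and the spleen response was below the liver response at both (spleen minus liver -1.27 ± 0.16, adjusted p = 0.00106, and -0.98 ± 0.12, adjusted p = 9.0e-08).

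Slc25a15, the ornithine and citrulline exchanger of the urea cycle, read 12.54, 12.38 and 12.73 with vehicle in liver at 4 h and 13.08, 13.47, 13.56 and 13.51 with 2BE. The lowest 2BE liver was replicate 1, above every vehicle liver, and the rise was 0.86 ± 0.12 (1.81-fold, adjusted p = 8.1e-04), with 1.20 on its other probe set. At 7 d all 5 2BE livers (12.65 to 12.94) again lay above all 4 vehicle livers (12.40 to 12.57), but the log2 fold change of 0.32 ± 0.10 was not called (adjusted p = 0.172). In spleen at 7 d it was -0.27 ± 0.083 (adjusted p = 0.00820), with overlapping arms, and its other probe set gave 0.24. Averaged over both probe sets that value was -0.017 (adjusted p = 0.823). Slc25a44, a carrier of branched-chain amino acids, rose in spleen at 7 d by 0.91 ± 0.12 (adjusted p = 2.8e-06), from 8.03, 8.05, 7.82, 7.86 and 7.80 to 8.98, 8.81, 8.87, 8.94 and 8.52. It rose in marrow by 0.32 ± 0.061 (adjusted p = 0.00194), from 8.23, 8.17, 8.11, 8.13 and 8.06 to 8.47, 8.49, 8.54, 8.54 and 8.27. Neither pair of arms overlapped, and the marrow response was below that of spleen (marrow minus spleen -0.59 ± 0.11, adjusted p = 5.4e-05). Slc25a13, the aspartate-glutamate carrier of liver, was not called in liver (-0.062 ± 0.15 at 4 h and 0.087 ± 0.13 at 7 d) and rose in spleen at 7 d by 0.38 ± 0.093 (adjusted p = 0.00159), where its vehicle level was 6.21 ± 0.12 (SD, n = 5). That level and its 2BE values there (6.49 to 6.73) lay below the median probe set of those arrays at 6.80.

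Of 10 partner enzymes of the urea cycle and aspartate-glutamate exchange, 3 were higher in liver at 4 h, against 3.24% of all genes. These were Ass1 (1.34 ± 0.25, adjusted p = 0.00607) and Asl (0.69 ± 0.10, adjusted p = 0.00134), which make and cleave argininosuccinate, and Got1 (1.14 ± 0.24, adjusted p = 0.0111), the cytosolic aspartate aminotransferase. At 7 d Got1 was called (1.06 ± 0.21, adjusted p = 0.0261), and the list's median was 0.018 against 0.23 at 4 h. Spleen at 7 d had 3 of the 10 higher and 4 lower, where 32.4% of all genes were higher and 32.0% lower.

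ATP-Mg and phosphate are exchanged by a group of calcium-regulated carriers. Slc25a25 was the member higher in liver at 4 h, where it read 9.75, 9.33 and 10.05 with vehicle and 10.57, 11.01, 10.56 and 10.76 with 2BE. Here the arms were apart and the log2 fold change was 1.02 ± 0.24 (2.02-fold, adjusted p = 0.0231). This call rested on 1 of 3 probe sets, since the others gave -0.063 and 0.49 and the mean of all 3 gave 0.48 (adjusted p = 0.0979). It was also lost without vehicle replicate 1 (adjusted p = 0.0650), vehicle replicate 2 (0.107), 2BE replicate 2 (0.0581) or 2BE replicate 4 (0.0594). At 7 d the livers read 8.71, 8.96, 9.25 and 8.90 with vehicle and 9.54, 10.43, 9.30, 9.19 and 9.86 with 2BE, with 2BE replicate 4 inside the vehicle range, and the value of 0.71 ± 0.21 was not called (adjusted p = 0.149). By 7 d in spleen it rose by 0.44 ± 0.087 (adjusted p = 2.6e-04). Slc25a24, another of this group, rose in spleen at 7 d by 0.76 ± 0.14 (adjusted p = 1.1e-04), from 9.25, 9.31, 9.31, 9.25 and 9.27 to 10.14, 10.20, 10.14, 9.93 and 9.78, with 1.02 on its other probe set. Its marrow value was 0.020 ± 0.074, and the 2 responses differed by -0.74 ± 0.13 (adjusted p = 1.9e-05). Slc25a23 was lower in spleen at 7 d (-0.34 ± 0.085, adjusted p = 0.00203, arms overlapping), with both arms below the median probe set of those arrays.

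Slc25a25 is known as a gene switched on quickly by hormones, and 1 of its 3 promoter windows holds the full cyclic AMP response element, TGACGTCA, which is why that window is shown. It lies on chromosome 2 (chr2:32424067-32424316, minus strand, 51.6% GC, GRCm38.p6, RefSeq), with the match in capitals 150 to 143 bases before the start.
Slc25a25: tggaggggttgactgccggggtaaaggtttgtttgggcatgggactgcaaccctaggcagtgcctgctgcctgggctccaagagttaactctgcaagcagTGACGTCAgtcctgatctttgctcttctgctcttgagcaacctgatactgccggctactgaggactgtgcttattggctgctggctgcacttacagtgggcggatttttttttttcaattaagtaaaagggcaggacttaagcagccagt
TGACGTCA was found in 1.55% of all windows and in 2 of the 43 member windows, the other being that of Slc25a36.

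Slc25a30, an uncoupling protein-like carrier, was the member lower with 2BE in liver at 4 h. Its log2 values were 11.35, 10.50 and 10.18 with vehicle and 9.41, 9.13, 9.39 and 8.33 with 2BE. Arms were apart but wide, with vehicle replicate 1 the highest and 2BE replicate 4 the lowest. It fell by 1.61 ± 0.33 log2 units (3.06-fold, adjusted p = 0.0108), 3 of its 4 other probe sets had the same sign (-1.43 to 0.040 in all), and without vehicle replicate 1 the value was -1.28 (adjusted p = 0.0637). At 7 d the vehicle livers read 8.85, 10.25, 9.33 and 9.10 and the 2BE livers 8.83, 8.06, 8.26, 8.68 and 8.28. All 2BE livers were below all vehicle livers, narrowly for 2BE replicate 1, and the value of -0.96 ± 0.29 was not called (adjusted p = 0.157). In spleen the values were 0.13 ± 0.11 and -0.045 ± 0.097, and the spleen response differed from that of liver by 1.74 ± 0.35 at 4 h (adjusted p = 0.0191) and by 0.92 ± 0.25 at 7 d (adjusted p = 0.00242). Of its relatives, Slc25a27 fell in spleen at 7 d by 0.52 ± 0.10 (adjusted p = 2.5e-04) on 1 of 4 probe sets, the 3 others giving -0.060 to 0.064. Slc25a14 was called in none of the 5 comparisons.

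**Figure D3:**
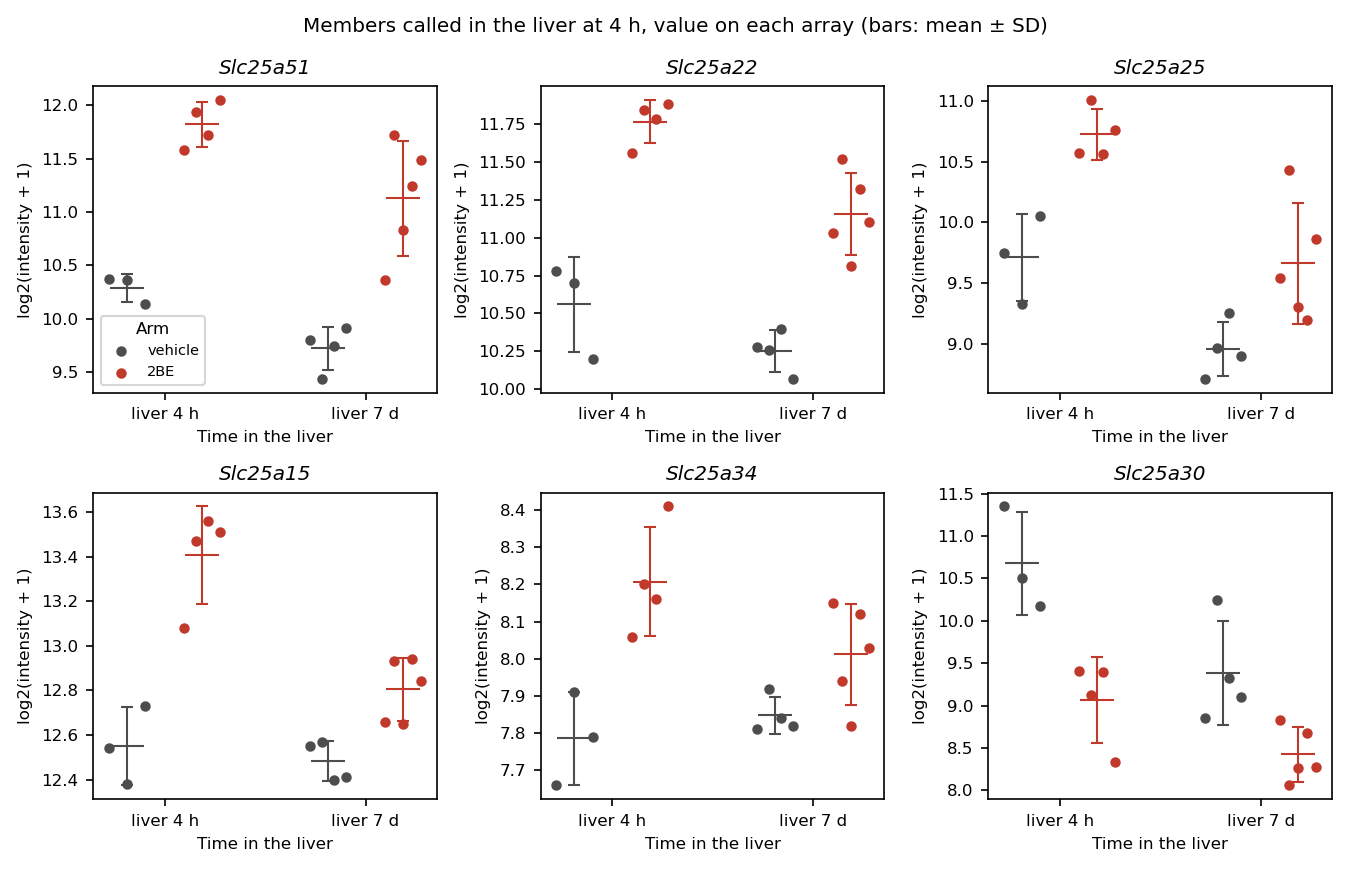
Log2 value on each liver array (points, vehicle grey and 2BE red) at 4 h and 7 d for the 6 members called in liver at 4 h, with bars for the mean ± SD. The members were picked for their calls at 4 h, and at 7 d the arms of Slc25a25 and Slc25a34 overlap.

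In liver at 4 h same-numbered arrays deviated together (correlations of 0.132 to 0.282), and with the replicate number as a block 3 members were called in place of 6. Slc25a25 (1.00, adjusted p = 0.0932), Slc25a34 (0.35, adjusted p = 0.0680) and Slc25a30 (-1.37, adjusted p = 0.0816) were then not called. Slc25a34, a carrier of unsettled substrate, had risen by 0.42 ± 0.093 without the block (adjusted p = 0.0152), from 7.66, 7.91 and 7.79 to 8.06, 8.20, 8.16 and 8.41. It was not called without vehicle replicate 1 (0.35, adjusted p = 0.0829). With the arrays of the compared groups alone neither Slc25a34 (adjusted p = 0.126) nor Slc25a30 (adjusted p = 0.0833) was called.

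Liver at 7 d was compared with liver at 4 h directly. None of the 43 members differed between 7 d and 4 h by limma (0 called, against 0.269% of all genes), with 3 at an unadjusted p under 0.05. Over the 43 members the log2 fold changes of the 2 times had a Pearson's r of 0.92 and a Spearman's rho of 0.59, against a Pearson's r of 0.44 over all genes. A few members far from 0 at both times weigh most in that r of 0.92. They were Slc25a51 (1.53 at 4 h and 1.40 at 7 d), Slc25a22 (1.21 and 0.90), Slc25a25 (1.02 and 0.71) and Slc25a30 (-1.61 and -0.96). Neither r without them nor a rho over all genes was computed. The arrays of the 2 times are different, while the points share their probe sets and genes are not independent replicates. Both times gave higher values for 16 members and lower values for 12, and the 2 called at both times were 2 of the 6 called at 4 h and 2 of the 2 called at 7 d. Hepatocyte sums were 185738 to 196084 with vehicle and 199130 to 210706 with 2BE at 4 h, with Tat, a hormone-regulated aminotransferase, called of 7 markers at both times. Of all genes 4.51% were called in liver at 4 h and 0.748% at 7 d. Macrophage markers summed to 3751 to 4110 and 4561 to 6388 at 7 d, with 2 of 8 higher, and adipocyte markers to 285 to 387 and 534 to 868 at 4 h. Their part in the liver results was not tested.

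Adenine nucleotides and phosphate pass through Slc25a4 and Slc25a5, the ADP/ATP carriers, and Slc25a3, the phosphate carrier. Slc25a4, the isoform of muscle and resting tissue, was lower in spleen at 7 d. Its vehicle spleens read 11.19, 11.03, 10.96, 11.10 and 11.11 and its 2BE spleens 10.10, 9.90, 10.06, 10.07 and 10.50. All 2BE spleens lay below, 2BE replicate 5 lay nearest to the vehicle spleens, and the gene fell by 0.95 ± 0.096 log2 units (adjusted p = 1.9e-07), with -1.08 to 0.20 on 3 other probe sets, of which 2 had the same sign. In marrow it was -0.21 ± 0.11 (adjusted p = 0.216), and -0.31 without 2BE replicate 5 (adjusted p = 0.0285), and the marrow response differed from that of spleen by 0.74 ± 0.15 (adjusted p = 1.3e-04). Slc25a5 and Slc25a3 were called in none of the 5 comparisons. Their values in spleen at 7 d were -0.082 ± 0.075 and -0.082 ± 0.057, and Slc25a3 was at 0.21 ± 0.076 in liver at 4 h (adjusted p = 0.138). Without 1 array Slc25a3 was called at 0.28 in liver at 4 h (2BE replicate 3 left out, adjusted p = 0.0345) and at -0.12 in spleen at 7 d (2BE replicate 5 left out, adjusted p = 0.0421).

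Slc25a20, which carries acylcarnitines into the matrix for fat oxidation, was lower in both blood-forming tissues at 7 d. In spleen it read 9.78, 9.83, 9.86, 9.63 and 9.81 with vehicle and 8.76, 8.40, 8.88, 8.74 and 9.28 with 2BE. Again the arms were apart, 2BE replicate 2 was lowest and replicate 5 highest, and the gene fell by 0.97 ± 0.12 (1.96-fold, adjusted p = 1.1e-06), with -0.61 on its other probe set. In marrow it read 9.43, 9.34, 9.25, 9.15 and 9.25 with vehicle and 8.82, 8.73, 8.82, 9.04 and 9.24 with 2BE. There the arms overlapped through 2BE replicate 5, and it fell by 0.35 ± 0.090 (adjusted p = 0.0129), a response that differed from that of spleen by 0.62 ± 0.15 (adjusted p = 0.00172). In liver the values were 0.026 ± 0.15 and -0.049 ± 0.13. Of 9 measured partners in fat oxidation (12 listed), Cpt1a, which makes the acylcarnitines, was lower in spleen (-0.63 ± 0.12, adjusted p = 2.2e-04) and marrow (-0.45 ± 0.084, adjusted p = 0.00181) at 7 d. Acadm was also lower and Ppara higher in spleen, the list's median there was 0.093, and in liver limma called 0 of 9 at 4 h, with 0 at an unadjusted p under 0.05, and Cyp4a14 (3.79 ± 0.72, adjusted p = 0.0213) at 7 d. Of all genes 64.4% were called in spleen at 7 d, 20.1% in marrow, and 4.51% and 0.748% in liver at 4 h and 7 d.

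Carriers of di- and tricarboxylates (3 measured of 4 listed) had 1 member higher and 1 lower in spleen at 7 d. Of all genes 64.4% were called in that tissue and time. Slc25a10, the dicarboxylate carrier, rose there by 0.27 ± 0.059 (adjusted p = 6.8e-04) and Slc25a11, which exchanges oxoglutarate for malate, fell by 0.47 ± 0.079 (adjusted p = 4.4e-05). In spleen at 4 h Slc25a11 was at -0.29 ± 0.088 (adjusted p = 0.0689), with all 2BE values (8.72 to 8.82) below all vehicle values (8.92 to 9.25), and the difference between the times missed the threshold (-0.18 ± 0.12, adjusted p = 0.195). Slc25a1, the citrate carrier, was at -0.038 ± 0.072 there (0.10 after further quantile normalization) and between -0.078 and 0.14 in the other sets.

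The carriers listed as those of the liver numbered 10, namely Slc25a1, Slc25a10, Slc25a13, Slc25a15, Slc25a20, Slc25a25, Slc25a42, Slc25a45, Slc25a47 and Slc25a48. The list is not of genes confined to liver. In vehicle spleens at 7 d Slc25a45 read 9.60 to 9.98 and Slc25a25 8.05 to 8.33, above the median probe set at 6.80. Slc25a13 and Slc25a48 lay below it there. In liver itself 2 of the 10 were higher at 4 h, where 3.24% of all genes were higher (median -0.070 against -0.017 over all genes). At 7 d in liver limma called 0 of them, against 0.748% of all genes (2 at an unadjusted p under 0.05, median 0.023). Spleen at 7 d had 6 higher and 3 lower, where 32.4% of all genes were higher and 32.0% lower (median 0.26 against 0.051). In spleen at 4 h and in marrow 1 was lower each, where 1.85% and 10.7% of all genes were lower. Slc25a38 and Slc25a39 were listed as the erythroid carriers, though Slc25a39 was bright in liver too. They stood at a mean of 1.48 in spleen at 7 d, -0.22 in spleen at 4 h, 0.29 in marrow, 0.033 in liver at 4 h and 0.015 in liver at 7 d. Slc25a47, found almost only in liver, was at -0.15 ± 0.10 in liver at 4 h and -0.025 ± 0.092 at 7 d, neither called. In spleen at 7 d it rose by 0.52 ± 0.088 (adjusted p = 4.9e-05) from a vehicle mean of 6.91 ± 0.14 (SD, n = 5), near the median probe set of those arrays at 6.80. Of 7 hepatocyte markers measured in spleen at 7 d, Ttr, Cps1 and Tat were higher, with a median of 0.26 over the list, and the summed intensities were 473 to 1652 with vehicle and 537 to 721 with 2BE. Their part in the result was not tested.

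Members of unsettled or newly assigned substrate (8 genes) included Slc25a53, which was lower in spleen and marrow at 7 d. In spleen it read 9.73, 9.44, 9.74, 9.35 and 9.44 with vehicle and 8.31, 8.44, 8.73, 8.50 and 9.23 with 2BE. No value overlapped and it fell by 0.90 ± 0.17 (adjusted p = 1.5e-04), with -0.46 on its other probe set. In marrow (7.70, 7.74, 7.99, 7.84 and 7.82 against 7.31, 7.57, 7.20, 7.19 and 7.72) the arms overlapped through 2BE replicate 5, and it fell by 0.42 ± 0.098 (adjusted p = 0.00802). Slc25a45 was lower in spleen at 4 h, at 9.42, 9.66, 9.59 and 9.58 with vehicle and 9.21, 9.35, 9.08 and 8.98 with 2BE, a value of -0.41 ± 0.12 (adjusted p = 0.0481). That call was lost without any 1 of vehicle replicates 2, 3 and 4 and 2BE replicates 1, 3 and 4 (adjusted p up to 0.161) and with the arrays of the compared groups alone (adjusted p = 0.0555). At 7 d the gene fell by 0.64 ± 0.10 (adjusted p = 2.9e-05). Slc25a35 fell in spleen at 7 d by 0.59 ± 0.088 (adjusted p = 1.3e-05). Slc25a34, Slc25a47 and Slc25a48 were the 3 of this group that were higher there, where 32.4% of all genes were higher. The vehicle values of Slc25a48 (6.32 to 6.53) lay below the median probe set of those arrays at 6.80.

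**Figure D4:**
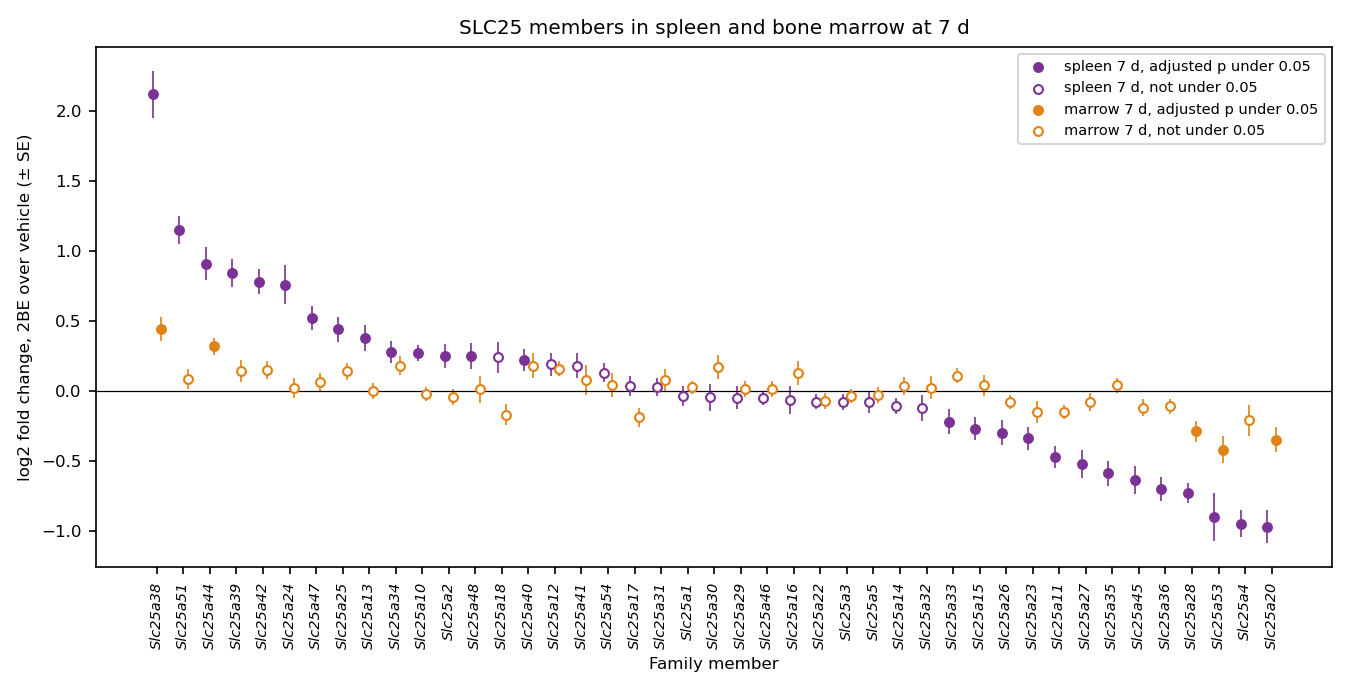
Log2 fold change of 2BE over vehicle ± SE for the 43 members (horizontal axis, ordered by the spleen value) in spleen (purple) and bone marrow (orange) at 7 d, filled where the adjusted p was under 0.05. The spleen values run from 2.12 to -0.97 and the marrow values from 0.44 to -0.42.

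Responses were also compared directly between tissues and times. Between spleen at 7 d and at 4 h 20 members differed, 10 each way (46.5%, against 51.3% of all genes, 25.6% each way). Between spleen and liver 3 members differed at 4 h (6.98%, against 1.78% of all genes). The value was larger in spleen for Slc25a30 (0.934% of all genes) and smaller for Slc25a51 and Slc25a22 (0.841%). At 7 d 24 differed (55.8%, against 57.0%), 11 with the larger value in spleen (27.4% of all genes) and 13 with the smaller (29.6%). Between marrow and spleen at 7 d 22 differed (51.2%, against 44.9%), 11 with the larger value in marrow (25.0% of all genes) and 11 with the smaller (19.9%). These comparisons share the arrays of spleen at 7 d. A filter that kept genes whose higher group mean passed the median probe set in at least 1 tissue and time left out 5 members. These, Slc25a2, Slc25a18, Slc25a31, Slc25a41 and Slc25a54, were called once between them, Slc25a2 in spleen at 7 d (0.25 ± 0.088, adjusted p = 0.0179, arms overlapping), and 38 of the 43 members passed it.

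The members called in none of the 5 comparisons were Slc25a1, Slc25a3, Slc25a5, Slc25a12, Slc25a14, Slc25a16, Slc25a17, Slc25a18, Slc25a29, Slc25a31, Slc25a32, Slc25a41, Slc25a46 and Slc25a54. Slc25a12, the aspartate-glutamate carrier of brain and muscle, was at 0.16 ± 0.054 in bone marrow (adjusted p = 0.0505) and at 0.19 ± 0.083 in spleen at 7 d (adjusted p = 0.0562). Its 2 other probe sets gave -0.17 and -0.097 in marrow, the opposite sign, and -0.33 and 0.0068 in spleen at 7 d. Slc25a32, a folate and flavin carrier, lay between -0.12 and 0.29. Slc25a26, which imports S-adenosylmethionine, was also lower in spleen at 7 d (-0.30 ± 0.089, adjusted p = 0.00669, arms overlapping), while its other probe set gave 0.074.

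Genes that import or accompany the carriers had smaller medians than the haem genes in spleen at 7 d. Of all genes there, 32.4% were higher and 32.0% lower. Of the machinery that imports carriers (13 measured of 15 listed) 5 were higher and Tomm20 lower, with a median of 0.057, and Timm8a1, a chaperone of the intermembrane space, rose most (0.67 ± 0.10, adjusted p = 2.2e-05). Of proteins with the carrier fold under other names and of other mitochondrial channels (8 of 10) 5 were higher and Mtch1 lower (-0.51 ± 0.071, adjusted p = 5.6e-06), with a median of 0.28. Of 15 genes taken as a measure of mitochondrial mass (16 listed) 7 were higher and 2 lower, with a median of 0.15. Cycs (cytochrome c) rose by 0.57 ± 0.11 (adjusted p = 1.3e-04) and Tfam, which maintains mitochondrial DNA, fell by 0.56 ± 0.085 (adjusted p = 1.4e-05). In marrow limma called 0 of 13 import genes (4 at an unadjusted p under 0.05), 3 of 8 channel genes and 3 of 15 mass genes. Of all genes 20.1% were called in marrow.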

How the data were processed

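Gene expression was measured on 44 Affymetrix arrays after one-cycle biotin labelling, per the labels' protocols. The authors deposited 1 intensity per probe set on a linear scale (6.16 to 47797.8), made with RMA per the submitters' processing notes, without a version. Array medians form 5 sets by tissue and time, so the sets may have been normalized separately, which limits comparisons of levels and not of responses within a set. The deposited intensities were turned into log2(value + 1). Of 45037 probe sets without the 64 controls, GEO's platform annotation gave 34945 exactly 1 symbol, 932 several and 9160 none, and those with 1 symbol covered 18193 genes.

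limma 3.58.1 in R 4.3.3 was fitted to group means within each tissue (lmFit, eBayes), and differences between responses were fitted on the 4 or 6 groups of the same tissue or time. Calls were adjusted p under 0.05 over all genes. By rule the text names Slc25a38, Slc25a39, Slc25a28 and Slc25a40, 8 liver carriers (Slc25a1, Slc25a10, Slc25a13, Slc25a15, Slc25a20, Slc25a25, Slc25a42 and Slc25a47), Slc25a3, Slc25a4 and Slc25a5, and the called members with the largest change, up to 5 per direction in a comparison and 3 in a difference. A few more were named after their values were seen, to complete a role. The members and lists were chosen with earlier results of these data known. Replicates correlated at 0.9832 or more and none were identical. The values do not settle whether the replicate numbers pair arrays. Only in liver at 4 h did every same-numbered pair deviate together (correlation 0.132 to 0.282). The main fits, that of liver at 4 h included, left the replicate numbers out. Alternatives were a pseudocount of 16, a filter on low values, the mean of all probe sets, arrays of the compared groups alone, the replicate block, further quantile normalization, trended robust eBayes, and leaving out each array. The fit was tested on simulated data. Promoters came from RefSeq (GRCm38.p6), where 34 of 43 members matched. 1 further family member is not reported here.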

Additional observations from a re-analysis of the deposited data

Results flagged for a closer look

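Each group checked was 1 member named by rule in 1 tissue, time and arm, so groups shared arrays and were not independent. In 159 groups of 4 or 5 arrays, 12 (7.55%) held 1 array set apart from the rest, where chance gives about 1 in 20. In marrow these were Slc25a15 at 7.81 on 2BE replicate 4, Slc25a28 at 8.42 on 2BE replicate 3, Slc25a44 at 8.27 on 2BE replicate 5, Slc25a42 at 7.85 on vehicle replicate 1 and Slc25a47 at 7.23 on vehicle replicate 2. In liver at 7 d they were Slc25a1 at 11.25 on 2BE replicate 5, Slc25a13 at 11.46 on 2BE replicate 1 and Slc25a5 at 13.29 on 2BE replicate 3. In spleen they were Slc25a1 at 8.95 on 2BE replicate 3 at 4 h, the 4 h spleen with the highest adipocyte sum, Slc25a28 at 9.14 on 2BE replicate 5 at 7 d, the 2BE array with the highest B cell sum, and Slc25a39 at 12.88 and Slc25a51 at 10.97 on vehicle replicate 1 at 7 d, the array with the lowest erythroid sum. Whether these marker sums bear on the values set apart was not tested.

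Responses that differed between tissues or times by limma were listed for the members named by rule. Between spleen at 7 d and 4 h the differences were 2.21 for Slc25a38, 1.42 for Slc25a51, 1.18 for Slc25a39, -1.27 for Slc25a53, -0.90 for Slc25a4 and -0.90 for Slc25a20. For spleen minus liver at 4 h they were 1.74 for Slc25a30, -1.80 for Slc25a51 and -1.27 for Slc25a22. For spleen minus liver at 7 d they were 2.13 for Slc25a38, 0.92 for Slc25a30, 0.84 for Slc25a42, -1.14 for Slc25a4, -1.08 for Slc25a53 and -0.98 for Slc25a22. For marrow minus spleen at 7 d they were 0.74 for Slc25a4, 0.63 for Slc25a35, 0.62 for Slc25a20, -1.68 for Slc25a38, -1.06 for Slc25a51 and -0.74 for Slc25a24.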

How the results depend on the processing

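No result changed direction with a call under any alternative run. With the replicate block the members called in liver at 4 h numbered 3 in place of 6, and in spleen at 4 h 5 in place of 3; with arrays of the compared groups alone the spleen count was 1. Leaving out 1 array at a time gave 3 to 7 members in liver at 4 h, 1 to 5 in spleen at 4 h, 2 in every case in liver at 7 d, 5 to 7 in marrow and 24 to 29 in spleen at 7 d. Differences of response then numbered 0 to 1 between the liver times (1 without 2BE replicate 1 at 4 h), 19 to 23 between the spleen times, 3 to 5 and 22 to 26 between spleen and liver at 4 h and 7 d, and 20 to 23 between marrow and spleen. Over all genes, calls in liver at 4 h numbered 821, with 471 under the block, 176 on those groups alone, 484 without vehicle replicate 1 and 466 without 2BE replicate 4. In spleen at 4 h 938 became 508 on those groups alone, and in liver at 7 d 136 became 244, and 36 to 250 with 1 array left out. The 49 genes that differed between the liver times became 4 to 111, and the 323 between spleen and liver at 4 h became 214 without liver vehicle replicate 1. Further quantile normalization changed the higher and lower calls from 590 and 231 to 522 and 336 in liver at 4 h, from 602 and 336 to 631 and 486 in spleen at 4 h, and from 92 and 44 to 85 and 69 in liver at 7 d. The causes were not tested. The values do not settle whether the replicate numbers pair the arrays in any tissue and time. Same-numbered arrays deviated with correlations of -0.088 to 0.164 in marrow and -0.381 to 0.543 in spleen at 4 h. For single members, 723 values kept their call and size under the planned settings, 9 moved, 10 lost their call and 2 gained one, and with 1 array left out 1129, 13, 21 and 6. The fit on compared groups alone was already the main one for marrow and for the differences within liver, within spleen and at 4 h. Dim members such as Slc25a2 lie near background on these arrays, where small changes cannot be resolved.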
